A study of Bos taurus
Mus musculus with 10 samples.

Results

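Matrix metalloproteases and their tissue inhibitors, the TIMPs, were followed in co-cultures of bovine embryonic stem cells and mouse feeder fibroblasts after removal of IWR-1. The 9 genes were taken by symbol among the bovine transcripts and by NCBI gene ID among the mouse transcripts. They were MMP2, MMP3, MMP9, MMP10, MMP13, MMP14, TIMP1, TIMP2 and TIMP3. Of these, 8 were found among the 27590 genes of the bovine table and 9 among the 31349 genes of the mouse table. No ID in the bovine table matched the symbol MMP10, which was therefore not analysed here for the stem cells. Mouse IDs other than these 9 carried no names.

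Wells without IWR-1 (IWRR) had received medium lacking the inhibitor for 1 day, and wells with IWR-1 (IWR) had kept 2.5 µM of it. All wells held wild-type bovine stem cells of lines 1, 2, 4, 8 or 11, derived from blastocysts of day 7.5, in mTeSR1-based medium. In all of them the feeders were CD-1 mouse embryonic fibroblasts from E13.5 fetuses, arrested with mitomycin C. With 1 well of every line in each medium, there were 5 wells per medium, and a difference within a line also holds the difference between 2 wells. IWR-1 inhibits tankyrases, which leaves more AXIN in the cell and lowers Wnt/beta-catenin signalling.

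Matrix metalloproteases are zinc-dependent proteases that cut collagens, laminins, proteoglycans and other proteins outside the cell. Most are secreted as inactive proenzymes, and TIMPs block the active enzymes by binding their catalytic site. In fibroblast cultures both kinds of gene are typically expressed, and the collagenase and stromelysin genes are known as inducible by cytokines, growth factors and AP-1 factors.

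Recovered reads per library amounted to 48064953 to 64345738 on bovine genes and 17101894 to 35223039 on mouse genes. The unit used throughout is the deposited normalised read count per gene, scaled separately in each table, and changes are given on the log2(value + 1) scale. The bovine transcripts carried the 8 fixed markers of pluripotent stem cells. These summed to 81933 to 152698 normalised reads per well without IWR-1 and to 87546 to 158799 with it. Line 4 stood apart. Its 14 bovine fibroblast and mesenchyme markers summed to 254531 without IWR-1, where the other lines had 51981 to 115092. With IWR-1 they summed to 238213, where the other lines had 51916 to 114497. Line 4 also had the highest share of mouse reads among all reads. It was 41.4% without IWR-1, where the other lines had 21.2% to 26.6%, and 42.3% with it, where they had 23.4% to 33.3%. The labels do not say what was done with reads that fit either genome, and their part in these sums was not tested. The feeder identity of the mouse transcripts was not checked against other markers, since those IDs carried no names. In wells that mix cells, fewer cells of a type and less RNA per cell cannot be told apart.

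In the mouse feeders, transcripts of the collagenase gene Mmp13 and the gelatinase gene Mmp9 fell without IWR-1, and those of the inhibitor gene Timp3 rose. Mmp13 stood at 0.52 of its level with IWR-1, Mmp9 at 0.77 and Timp3 at 1.29-fold. Of 9 members tested, 2 fell, 1 rose and 6 were not called at a limma adjusted p under 0.05, in a fit with the line as a block. Over all 15871 mouse genes tested, 2.05% fell and 2.14% rose. Of the 9 members, 7 were lower without IWR-1 in every line, whereas 7.83% of all tested mouse genes were; 1 member was higher in every line, against 7.83%. The median log2 fold change was -0.24 over the members and -0.000414 over all tested mouse genes.

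**Figure D1:**
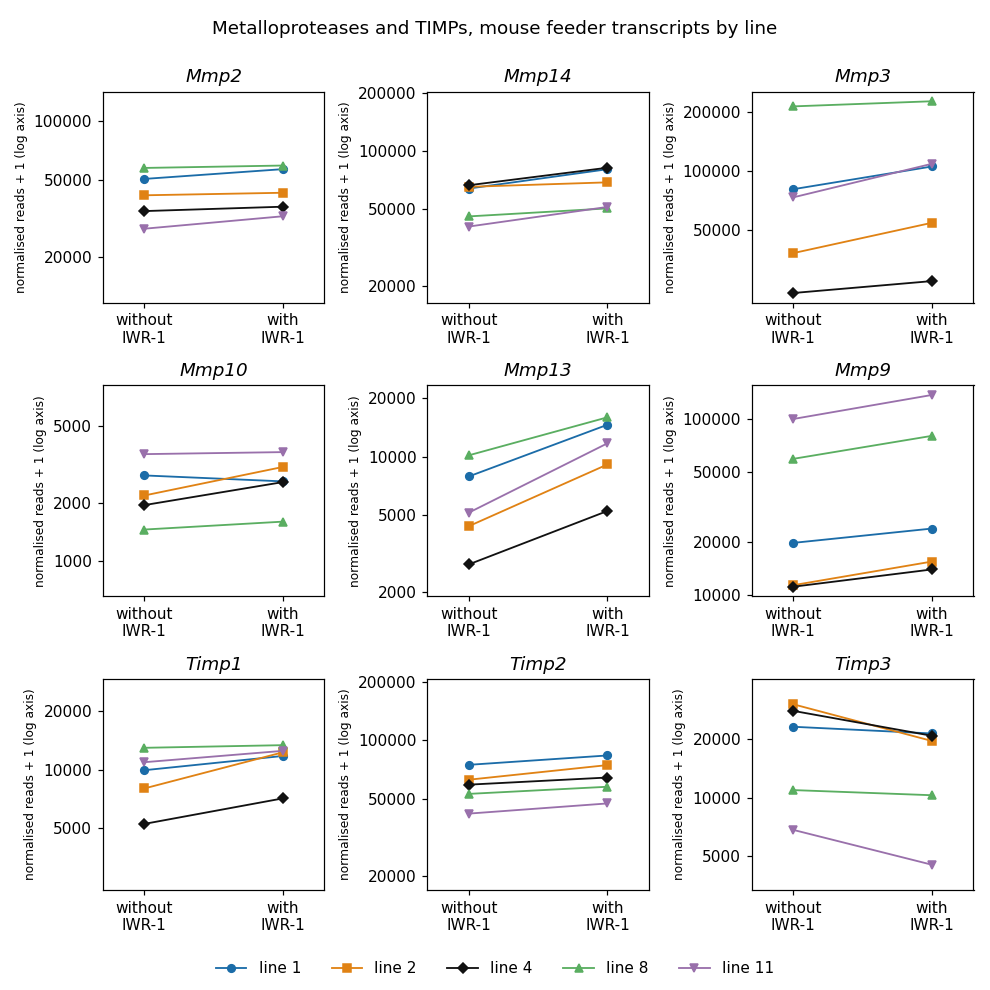
Normalised reads plus 1 of the 9 mouse genes on log axes, with wells without IWR-1 on the left and with IWR-1 on the right of each panel; each line joins the 2 wells of 1 stem cell line. Mmp13 and Mmp9 are lower without IWR-1 in all 5 lines and Timp3 is higher, while the lines lie further apart than the media for Mmp3 and Mmp9.

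Mmp13 (gene ID 17386) encodes collagenase 3, the main interstitial collagenase of rodent fibroblasts. It had 7909, 4381, 2782, 10163 and 5146 normalised reads without IWR-1 in lines 1, 2, 4, 8 and 11, against 14609, 9116, 5245, 15958 and 11718 with IWR-1. Every line was lower without IWR-1, although the ranges of the media overlapped because the lines differed. The log2 fold change was -0.94 ± 0.08 (SE, limma adjusted p = 0.000122), with within-line changes of -1.19 to -0.65. The call held in each of the 5 fits that left out 1 line.

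Mmp9 (gene ID 17395) encodes gelatinase B, which cuts denatured collagen and basement membrane collagen. It had 19720, 11350, 11125, 59101 and 99453 normalised reads without IWR-1 in lines 1, 2, 4, 8 and 11, against 23772, 15448, 13938, 79774 and 136073 with it. Wells of lines 8 and 11 were high and those of lines 1, 2 and 4 low in both media, and every line was lower without IWR-1. The log2 fold change was -0.38 ± 0.07 (SE, limma adjusted p = 0.0083). The call was lost without line 4 (-0.40, adjusted p = 0.053) or line 11 (-0.37, adjusted p = 0.0642).

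The stromelysins Mmp3 and Mmp10, broad proteases that also activate other proenzymes, were not called. Mmp3 had 80760, 37952, 23677, 214890 and 73359 normalised reads without IWR-1 in lines 1, 2, 4, 8 and 11, against 105610, 54292, 27256, 228300 and 109034 with it. Each line was at its lower value without IWR-1, with a log2 fold change of -0.35 ± 0.09 (SE, limma adjusted p = 0.0589). It passed the threshold without line 8 (-0.42, limma adjusted p = 0.0118) and in edgeR's quasi-likelihood test on the recovered reads (adjusted p = 0.0342). DESeq2 on those reads gave an adjusted p of 0.00105. Mmp10 was at -0.19 ± 0.09 (SE, limma adjusted p = 0.294), lower in 4 lines and higher in line 1, and at -0.12 without line 2. Both genes are close relatives in sequence, and the labels do not say how reads that match both were counted.

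Mmp14, which encodes the membrane-bound protease that activates pro-MMP2, averaged 56533 ± 12191 normalised reads without IWR-1 and 66680 ± 15185 with it (SD, n = 5 each). It was lower in every line but was not called (-0.24 ± 0.08 SE, limma adjusted p = 0.145). DESeq2 on the recovered reads gave an adjusted p of 0.0202. Mmp2, encoding gelatinase A, averaged 42444 ± 11918 without IWR-1 and 45540 ± 12017 with it (SD, n = 5 each). Its log2 fold change was -0.11 ± 0.07 SE (limma adjusted p = 0.543), within an interval of -0.27 to 0.05 (95%), and again every line was lower.

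Among the inhibitors, Timp3 went the other way from Timp1 and Timp2. TIMP3 is the member of the family that stays bound to the matrix, and it also inhibits ADAM and ADAMTS proteases. Timp3 (gene ID 21859) had 23230, 30333, 28051, 10949 and 6821 normalised reads without IWR-1 in lines 1, 2, 4, 8 and 11, against 21452, 19620, 20870, 10299 and 4510 with it. Every line was higher without IWR-1, by little in lines 1 and 8 (log2 changes of 0.11 and 0.09) and by more in lines 2, 4 and 11 (0.63, 0.43 and 0.60). The log2 fold change was 0.37 ± 0.09 (SE, limma adjusted p = 0.0399). The call ended without line 1, 2, 4 or 11 (0.31 to 0.44 over the 5 fits) and without a filter on low values (adjusted p = 0.133).

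Timp1, encoding a secreted inhibitor of most metalloproteases, had 9948, 8012, 5257, 12981 and 10941 normalised reads without IWR-1 in lines 1, 2, 4, 8 and 11, against 11784, 12308, 7120, 13395 and 12521 with it. It was lower in every line, by least in line 8, and was not called (-0.31 ± 0.08 SE, limma adjusted p = 0.0574). It passed without line 8 (-0.37, limma adjusted p = 0.0125) and in DESeq2 on the recovered reads (adjusted p = 0.0117). Timp2, whose product both inhibits MMP2 and takes part in its activation by MMP14, averaged 58345 ± 12150 without IWR-1 and 65540 ± 14198 with it (SD, n = 5 each). It was lower in every line and not called (-0.17 ± 0.08 SE, limma adjusted p = 0.306).

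The share of the feeder reads that fell on the members was then compared. They took 1.11% to 2.19% of the mouse reads of a library without IWR-1 and 1.22% to 2.33% with it. Mmp3 alone took 1.01% in line 8 without IWR-1 and 1.03% with it. The 6 protease genes together were lower without IWR-1 in each line, at 1.07%, 0.697%, 0.671%, 1.83% and 1.15% of the mouse reads in lines 1, 2, 4, 8 and 11, against 1.33%, 0.890%, 0.788%, 1.97% and 1.57% with IWR-1. These shares count reads and are not levels per gene length. Mouse reads made up 26.8% ± 8.45 of all reads without IWR-1 and 30.4% ± 7.57 with it (SD, n = 5 each). This share was lower in all 5 lines, and its exact sign-flip permutation test gave p = 0.0625, the smallest 5 pairs allow. With it as a covariate no gene of either table was called by limma at an adjusted p under 0.05. Of 18506 bovine and 15871 mouse genes tested, 456 and 687 had an unadjusted p under 0.05, smaller shares than the 0.05 that chance alone gives. Without the covariate, limma called 176 and 665, and edgeR called 190 and 727. In the fit with the covariate Mmp13 was at -0.79, Mmp9 at -0.27, Timp3 at 0.21 and Mmp3 at -0.17 on the log2 scale, and among bovine members TIMP3 was at 0.55, MMP3 at 2.45 and MMP9 at -1.89. The part of the feeder share in the changes of either table was not tested beyond that fit.

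**Figure D2:**
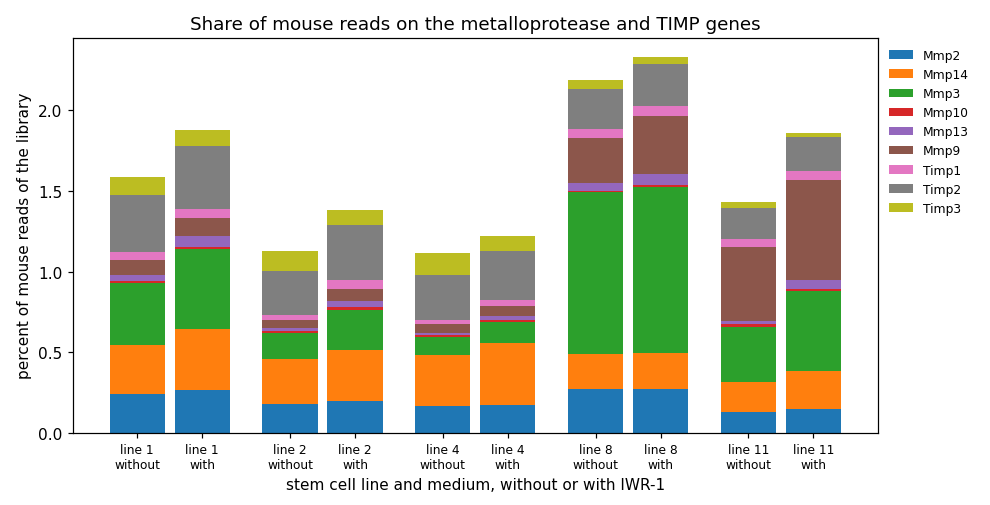
Percent of the mouse reads of each library that fell on the 9 genes, stacked by gene, for the well without and then with IWR-1 of each stem cell line. The stack is lower without IWR-1 in each line, and the Mmp3 part is largest in line 8 and the Mmp9 part in line 11.

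In the bovine stem cells, TIMP3 rose without IWR-1, and no member fell. It stood at 1.42-fold of its level with IWR-1. Of 8 members found, 7 passed the filter on low values, a normalised read count of at least 10 in 5 libraries. MMP3 also passed the threshold, but it met that filter through 4 wells without IWR-1 and 1 with it, so its few reads are given as a description and are not counted as a call. The other 5 were not called. Over all 18506 bovine genes tested, 0.886% rose and 0.0648% fell. Among the tested members other than MMP3, TIMP2 and TIMP3 were higher in every line and MMP2 was lower in every line. Of all tested bovine genes, 6.2% were higher and 4.92% lower in every line. MMP3 was higher in every line too, but is left out of this comparison because of how it met the filter.

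Summed marker levels of several cell types differed between the media in the same bovine libraries. Of the single markers only KRT18 and NANOG were called. The 6 trophectoderm markers summed to 6517, 7741, 3113, 17771 and 12002 normalised reads without IWR-1 in lines 1, 2, 4, 8 and 11, against 4429, 3978, 1515, 8430 and 6011 with it. The sum was higher without IWR-1 in every line, and most of it came from KRT18, a keratin of simple epithelia, which rose (log2 fold change 0.96 ± 0.08 SE, limma adjusted p = 0.00108). Of the 6, only KRT18 and TFAP2A passed the filter. TFAP2A went the other way (log2 fold change -0.70 ± 0.48 SE, limma adjusted p = 0.748), higher in 2 lines and lower in 3. Below the filter, GATA2 was lower in 4 lines and GATA3 higher in 4. CDX2, a defining trophectoderm factor, was at 0 in 7 of 10 libraries. The sum of the fibroblast and mesenchyme markers was higher in every line, at 1.00 to 1.26 times its level with IWR-1, with 0 of 13 tested markers called. That of the pluripotency markers was lower in every line, at 0.901 to 0.962 times, although NANOG, a pluripotency factor, rose and the other 7 were not called. Of these 8 markers, 2 were higher and 2 lower in every line. DNMT3B, an abundant marker that was lower in every line, averaged 36481 normalised reads without IWR-1 and 43390 with it. POU5F1 was at -0.01 on the log2 scale. The leukocyte sum was lower in every line and the hypoblast sum in 4, with none of their tested markers called. The part of these cell types in the member changes was not tested.

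**Figure D3:**
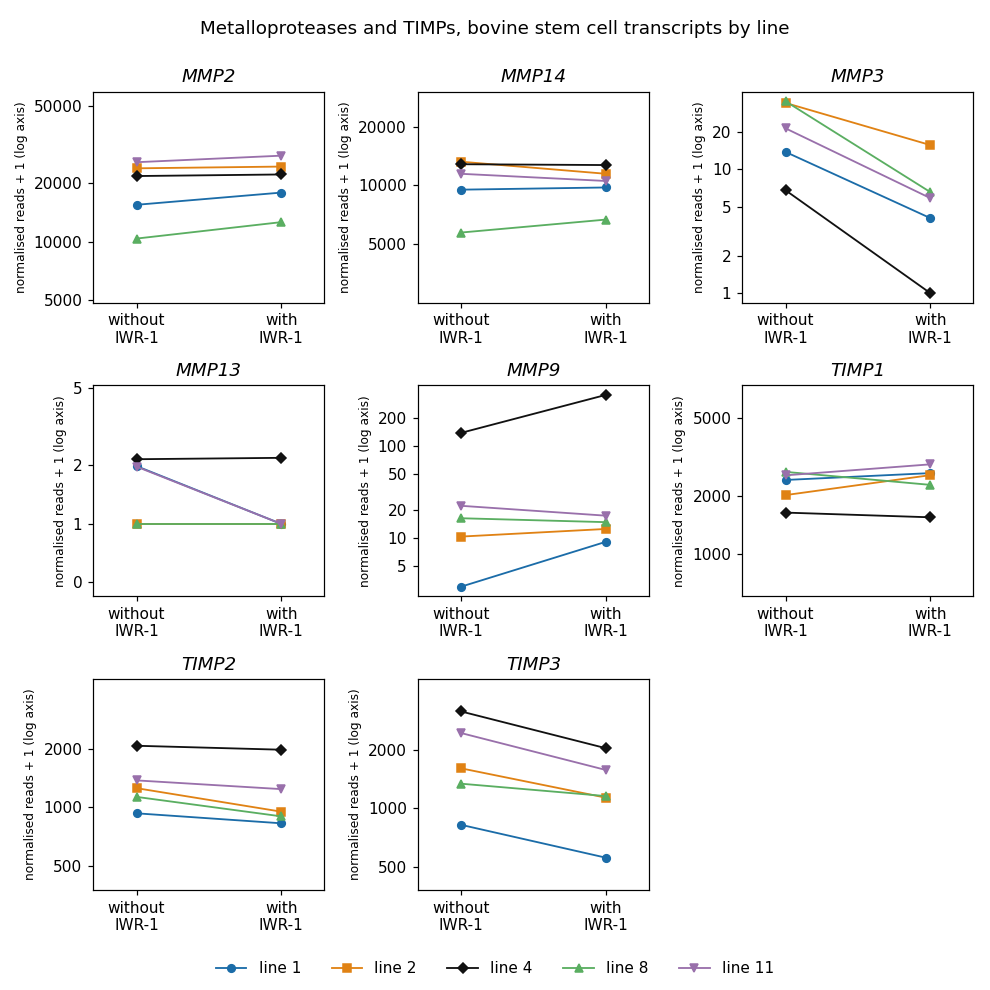
Normalised reads plus 1 of the 8 bovine genes on log axes, with wells without IWR-1 on the left and with IWR-1 on the right of each panel; each line joins the 2 wells of 1 stem cell line. TIMP3, TIMP2 and MMP3 are higher without IWR-1 in all 5 lines, and line 4 lies far above the others for MMP9.

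Bovine TIMP3 (gene ID 282094) had 820, 1605, 3156, 1337 and 2441 normalised reads without IWR-1 in lines 1, 2, 4, 8 and 11, against 555, 1133, 2040, 1154 and 1574 with it. Every line was higher without IWR-1, line 8 by least. Line 4 was the highest and line 1 the lowest in both media. The log2 fold change was 0.51 ± 0.07 (SE, limma adjusted p = 0.0137), with within-line changes of 0.21 to 0.63. The call ended without line 1 (limma adjusted p = 0.0857), line 4 (0.0542) or line 11 (0.105), at log2 fold changes of 0.48 to 0.58 over the 5 fits. In the annotation TIMP3 lies inside SYN3, a synapsin gene, and the labels do not say whether counting used strand. SYN3 itself had 50.6 to 163 normalised reads without IWR-1 and 64.1 to 156 with it (log2 fold change -0.17 ± 0.17 SE, limma adjusted p = 0.87).

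Bovine MMP3 (gene ID 281309) was near the lower limit of detection. It had 13, 32, 5, 38 and 21 recovered reads without IWR-1 in lines 1, 2, 4, 8 and 11, against 3, 14, 0, 6 and 5 with it. Every line was higher without IWR-1, and over all lines there were 109 reads without IWR-1 and 28 with it. The fitted log2 fold change was 1.99 ± 0.38 (SE, limma adjusted p = 0.0411), in a gene that was tested because of its wells without IWR-1. Its size depends on the pseudocount, with 2.24 at a pseudocount of 0.5 and 0.97 at 10, and it was not called at 0.5 (limma adjusted p = 0.0536) or without a filter on low values (0.0821). The threshold was also missed without line 4 (limma adjusted p = 0.0846), and the gene dropped below the filter when any other line was left out. With the filter lowered to 4 libraries it was not called without line 1, 4, 8 or 11 (limma adjusted p = 0.0903 to 0.188).

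The other bovine inhibitors were not called. TIMP2 had 930, 1254, 2076, 1131 and 1376 normalised reads without IWR-1 in lines 1, 2, 4, 8 and 11, against 826, 949, 1981, 897 and 1240 with it. It was higher without IWR-1 in every line, with a log2 fold change of 0.22 ± 0.07 (SE, limma adjusted p = 0.241). TIMP1 averaged 2247 ± 420 without IWR-1 and 2373 ± 514 with it (SD, n = 5 each). Its direction differed between lines, and its log2 fold change was -0.07 ± 0.08 SE (limma adjusted p = 0.885; 95% interval -0.25 to 0.11), with values of -0.14 to -0.00065 when 1 line was left out, the smallest without line 2. TIMP1 lies inside the annotated SYN1 gene, which had 555 to 1393 normalised reads without IWR-1 and 683 to 1230 with it. TIMP2 overlaps CEP295NL, at 1.97 to 11.5 without IWR-1 and 0 to 8.33 with it.

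The bovine genes of the MMP14 and MMP2 activation pair had many reads and small differences. MMP14 averaged 10558 ± 3081 normalised reads without IWR-1 and 10232 ± 2285 with it (SD, n = 5 each). It was higher in 3 lines and lower in 2 (log2 fold change 0.02 ± 0.07 SE, limma adjusted p = 0.975; 95% interval -0.13 to 0.17). It overlaps the annotated RBM23 gene, at 3149 to 4583 without IWR-1 and 3087 to 4499 with it. MMP2 had 15503, 23911, 21815, 10379 and 25712 normalised reads without IWR-1 in lines 1, 2, 4, 8 and 11, against 17920, 24412, 22228, 12614 and 27787 with it. Each line was at its lower value without IWR-1, by little in lines 2 and 4, and was not called (-0.13 ± 0.06 SE, limma adjusted p = 0.509).

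MMP9 outside line 4, and MMP13 in each line, had few or no bovine reads. MMP9 had 1.97, 9.38, 137, 15.4 and 21.4 normalised reads without IWR-1 in lines 1, 2, 4, 8 and 11, against 8.10, 11.6, 356, 13.9 and 16.5 with it. Lines 1, 2 and 4 were lower without IWR-1 and lines 8 and 11 higher (log2 fold change -0.55 ± 0.35 SE, limma adjusted p = 0.714). Leaving out line 1 gave -0.29, leaving out line 4 gave -0.35 and leaving out line 11 gave -0.78, none of them called. The 6 leukocyte markers of the bovine table, cells in which MMP9 is typically abundant, summed to 444 in line 4 without IWR-1, where the other lines had 239 to 334, and to 482 with it, where the others had 321 to 397. Most of this sum came from CD68 and AIF1, with highest values of 269 and 206 normalised reads. PTPRC, ITGAM, SPI1 and CSF1R reached at most 11.5, 11.9, 12.1 and 23.3 in any library. The part of these markers or of the fibroblast markers in the MMP9 level of line 4 was not tested. MMP13 had 0 or 1 recovered read in each of the 10 libraries, so that no difference was detectable at this depth.

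**Figure D4:**
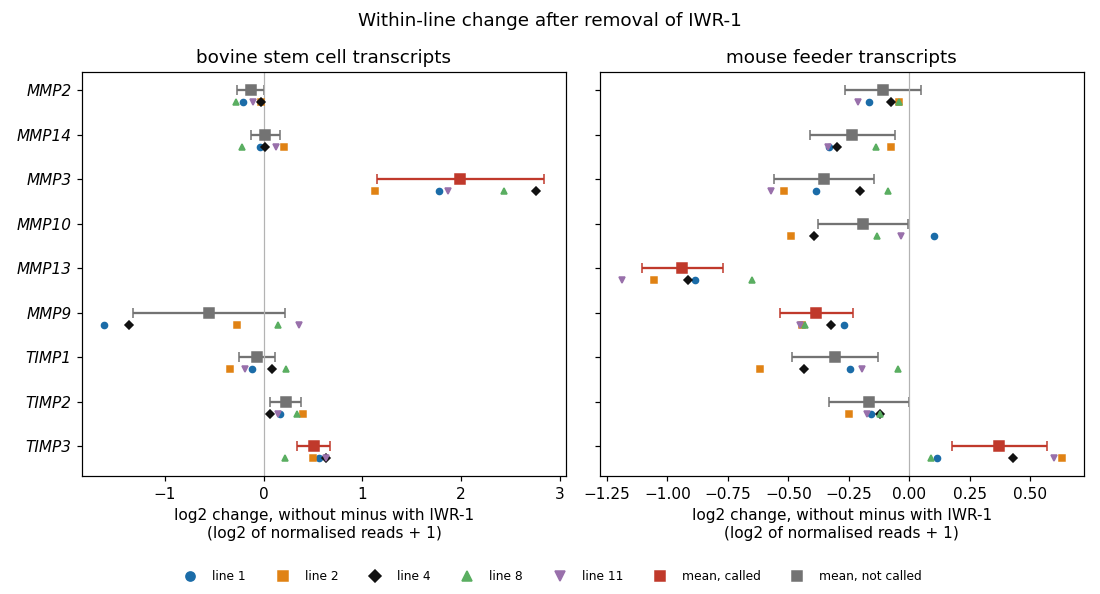
Log2 change without minus with IWR-1 on the log2(normalised reads + 1) scale, for bovine genes on the left and mouse genes on the right, whose axes differ in range. Squares are fitted means with 95% intervals, red where the limma adjusted p was under 0.05 and grey where not, and small symbols under them are the 5 lines. The square of bovine MMP3 is red, although that gene is not counted as a call in the text. TIMP3 lies above 0 in all lines of both panels, whereas MMP3 and TIMP2 lie above 0 in all lines on the left and below 0 on the right; the MMP3 point of line 4 on the left rests on 5 reads against 0.

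Set side by side, TIMP3 was the member that rose in both tables, at 0.51 ± 0.07 in the bovine and 0.37 ± 0.09 in the mouse transcripts (SE, log2 fold change). MMP2 was lower without IWR-1 in every line of both tables, at -0.13 and -0.11, and was called in neither. MMP3 and TIMP2 were higher in every line of the bovine table and lower in every line of the mouse table. For bovine MMP3 this is only a description, at 0 to 38 recovered reads per well. It met the filter on low values mainly through wells without IWR-1. The tables were normalised separately, so the differences between them were not tested.

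Both tables come from the same libraries, and the labels do not say what was done with reads that fit either genome. Bovine reads on MMP3 amounted to at most 0.103% of the mouse reads on Mmp3 in the same well, and those on MMP13 to at most 0.0216% of those on Mmp13. For MMP9 the share was 0.00896% to 1.29%, with both wells of line 4 at its top. For TIMP3 it was 2.88% to 36.1%, for TIMP2 1.10% to 3.31%, for TIMP1 10.98% to 30.2%, for MMP14 7.87% to 28.4% and for MMP2 23.7% to 92.8%. The part of misassigned reads in these levels was not tested.

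For each member tested, a larger part of the sum of squares lay between lines than between media. These sums were not divided by their degrees of freedom, of which lines have more than media. For mouse Mmp13, 62.0% of the variation of the log2 values (sum of squares) lay between lines and 36.7% between media, and for the other 8 mouse members 81.2% to 97.8% lay between lines. Mmp9 spanned 8.94-fold between the lowest and the highest line without IWR-1 and 9.76-fold with it, and Mmp3 9.08-fold and 8.38-fold. Line 8 had the highest Mmp3, Mmp13, Mmp2 and Timp1 of the mouse table in both media, whereas line 11 had the highest Mmp9 and the lowest Timp3, Timp2 and Mmp2. Line 4 had the lowest Mmp3, Mmp9, Mmp13 and Timp1. Among bovine transcripts the share between lines was 51.9% for MMP3 and 85.7% to 96.6% for the other 6 tested members, and the order of the lines was the same in both media for MMP2, MMP9 and TIMP2.

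The ratio of MMP2 to TIMP2 reads within a library does not depend on its scaling. In the bovine transcripts it was 16.7, 19.1, 10.5, 9.18 and 18.7 without IWR-1 in lines 1, 2, 4, 8 and 11, against 21.7, 25.7, 11.2, 14.1 and 22.4 with it. Each line was at its lower value without IWR-1, by 0.36 on average on the log2 scale (mean difference -0.36 ± 0.19, SD, n = 5 lines; exact two-sided sign-flip permutation test p = 0.0625, the smallest possible). In the mouse transcripts the mean log2 difference was 0.06 ± 0.10 (SD, n = 5 lines; exact sign-flip permutation test p = 0.25), higher in 3 lines and lower in 2, and 0.020 without line 2. The ratio counts reads, which scale with transcript length.

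Of the wider extracellular proteolysis genes, few changed in the bovine transcripts. Among 8 other tested matrix metalloproteases none was called; MMP17, a membrane-anchored member, was at -0.24 ± 0.06 (SE, limma adjusted p = 0.112) and MMP25, also membrane-anchored, at 0.25 ± 0.06 (adjusted p = 0.115). None of 6 other inhibitors and cofactors was called, among them PCOLCE, an enhancer of procollagen processing (0.13 ± 0.07), and its relative PCOLCE2 (0.20 ± 0.12). Of 9 genes of plasminogen activation 1 rose. This was ANXA2, a cell surface protein that helps plasminogen become plasmin, at 2564 ± 887 normalised reads without IWR-1 and 1508 ± 480 with it (SD, n = 5 each; log2 fold change 0.76 ± 0.08 SE, limma adjusted p = 0.00332), and it was called in each of the 5 fits that left out 1 line. None of 29 ADAM, ADAMTS and astacin protease genes was called, with ADAMTS9 at 0.49 ± 0.10 (adjusted p = 0.0529) and ADAMTS1 at 0.31 ± 0.08 (adjusted p = 0.107). None of 4 proprotein convertase genes, whose products activate MMP14, was called, with PCSK6 at 0.15 ± 0.12 and FURIN at 0.04 ± 0.06.

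Of 14 AP-1 and ETS transcription factor genes, families known to act on metalloprotease promoters, 2 rose and none fell. FOSL2 stood at 257 ± 256 normalised reads without IWR-1 and 133 ± 114 with it (SD, n = 5 each; log2 fold change 0.84 ± 0.14 SE, limma adjusted p = 0.0236). ETS1 stood at 1078 ± 418 without IWR-1 and 786 ± 290 with it (SD, n = 5 each; log2 fold change 0.44 ± 0.08 SE, limma adjusted p = 0.0352). FOSL2 was no longer called when line 1, 4 or 11 was left out (0.75 to 0.93 on the log2 scale), nor ETS1 when line 1, 2, 4 or 11 was (0.39 to 0.50). Over these 6 lists 3 of 70 tested genes rose and 0 fell, beside 0.886% and 0.0648% of all tested bovine genes.

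The bovine gene whose log2 values were most like those of TIMP3 over the 10 libraries was ACTA2, smooth muscle actin (Pearson r = 0.987). RHBDF1 (0.981), NEDD9 (0.980), MYL7 (0.980) and TAGLN (0.975) followed. With each line's mean taken off, so that only the change between its wells counts, the nearest were the receptor gene ROR2 (0.996), CREG2 (0.992), STAG3 (0.992), DOCK10 (0.988) and DYNC1I1 (0.987). These are the highest of 18506 genes over libraries that come from 5 lines, given as a description.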

How the data were processed

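Poly(A) RNA of 10 co-culture wells was sequenced, and per the labels the reads of each well were aligned once against cattle (ARS-UCD1.3) and once against mouse (GRCm39). Tools listed in the submitters' processing notes, with no role, are featureCounts 1.5.0-p3, StringTie 1.3.3b, HISAT2 2.0.5 and fastp. The authors deposited 1 table of normalised signal per species; the scaling is not described in the labels. All positive values were whole multiples of 1 step per library (100%, tolerance 0.01 reads), which gave recovered whole reads. The mouse file also held 2 columns without a sample label, not used here. Bovine symbols came from RefSeq assembly ARS-UCD2.0 (24660 of 27590 IDs matched); its coordinates are not given because the builds differ.

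Genes that reached a value of 10 in 5 or more libraries were tested with limma 3.58.1 under R 4.3.3 (trend by intensity, log2(value + 1), line as a block), and p-values were Benjamini-Hochberg adjusted over each whole table. "Rose" and "fell" mean an adjusted p under 0.05. Per the labels, wells that share a number hold 1 cell line; their deviations from group means correlated at 0.617 to 0.883 (bovine) and 0.488 to 0.725 (mouse). The limma fits were tested on simulated reads of the genes that passed the filter, and the outcome is not reported here. Alternatives were edgeR 4.0.16 and DESeq2 1.42.0 on recovered reads, TMM scaling, pseudocounts of 0.5 and 10, other filters, no block, the mouse share as covariate, and leaving out each line. The members and lists were chosen with earlier results of these data known. Named are all members, the called genes of each wider list (otherwise the 2 with the smallest adjusted p), and the genes most like the bovine member with the smallest adjusted p.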

Additional observations from a re-analysis of the deposited data

Results flagged for a closer look

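Dixon's gap criterion was applied to each tested member in each medium and table, 32 groups of 5 wells; chance flags about 1 group in 20. It picked bovine MMP9 in line 4 in both media, at 137 normalised reads without IWR-1 against 1.97 to 21.4 in the other lines, and at 356 with IWR-1 against 8.10 to 16.5. Mouse Timp1 in line 4 was low with IWR-1, at 7120 normalised reads against 11784 to 13395 in the other lines.

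For 2 members all lines moved one way among bovine transcripts and the other way among mouse transcripts. MMP3 had a log2 fold change of 1.99 in the bovine and -0.35 in the mouse table, and TIMP2 of 0.22 and -0.17. Bovine MMP3 had 0 to 38 recovered reads per well and met the filter on low values mainly through wells without IWR-1. Its bovine direction is therefore only a description. These differences between the tables were not tested.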

How the results depend on the processing

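Without the line as a block (no pairing of wells), limma called 0 genes in either table, 0 members and 0 genes of the wider lists. Of 18506 bovine and 15871 mouse genes tested, 105 and 584 had an unadjusted p under 0.05, smaller shares than the 0.05 that chance alone gives. With the block, limma called 176 and 665, and edgeR called 190 and 727. With the mouse share as covariate the limma counts of genes, members and wider list genes called were also 0. Bovine TIMP3 was then at 0.55 on the log2 scale (0.51 without the covariate), MMP3 at 2.45 (1.99) and MMP9 at -1.89 (-0.55). Mouse Mmp13 was at -0.79 (-0.94), Mmp9 at -0.27 (-0.38), Timp3 at 0.21 (0.37) and Mmp3 at -0.17 (-0.35). Bovine MMP14 turned to -0.054 and TIMP1 to 0.062, neither called. The bovine member counts of these fits include MMP3 wherever its adjusted p was under 0.05. It is not counted as a call above, since it met the filter on low values mainly through wells without IWR-1. Against 176 bovine genes, 2 bovine members under the threshold (TIMP3 and MMP3), 3 genes of the wider lists, 665 mouse genes and 3 mouse members, no filter on low values gave 53 bovine genes, 1 bovine member, 1 gene of the wider lists and 329 mouse genes. DESeq2 gave 420 bovine genes, 1 bovine member (MMP3 had no adjusted p), 10 genes of the wider lists and 6 mouse members. Mmp3, Mmp14 and Timp1 of the mouse table were called by DESeq2 but not in the main fit. A pseudocount of 0.5 and a minimum of 50 each left 1 bovine member, and edgeR called 5 genes of the wider lists. With 1 line left out, 31 to 182 bovine genes, 0 to 1 bovine members, 1 to 4 genes of the wider lists, 266 to 931 mouse genes and 1 to 5 mouse members were called; bovine MMP14 ranged from -0.031 to 0.076 and turned negative without line 2 (-0.031) or 11 (-0.0097). The lowered filter in fits that left out a line was chosen after seeing the data. The causes were not tested. The mouse share and MMP2 to TIMP2 differences kept their sign in these fits, although the mouse ratio difference was 0.020 without line 2. Counting error is largest for bovine MMP3, MMP9 and MMP13.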
